A study of Mus musculus with 12 samples.

Results

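The genes described here are 9 markers of the mammary epithelium: the keratins Krt8, Krt18, Krt19, Krt7, Krt5 and Krt14, the adhesion molecules Epcam and Cdh1, and the transcription factor Trp63. They were taken by symbol, without use of their values, and all 9 were found among the 16670 genes of the table. They were followed through 12 RNA sequencing libraries of inguinal white adipose tissue from female C57BL/6 mice labelled Kdm5c+/- or Kdm5c+/+ (wild type). Tissue pooled from 2 mice was digested and separated into mature adipocytes, the floating layer, and the stromal vascular fraction, the pellet of progenitor, vascular, immune and other cells, with 3 libraries for each genotype label and fraction. No age, treatment or Cre driver is given in the labels, nor is the removed part of Kdm5c.

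The mammary ducts of the mouse run through the inguinal fat pad, so epithelial cells can be collected with this depot. A duct has an inner layer of luminal cells, which carry keratins 8, 18, 19 and 7, and an outer basal or myoepithelial layer, which carries keratins 5 and 14 and p63, the protein of Trp63. Keratins form filaments as pairs of an acidic type I and a basic type II chain, of which keratin 18 with keratin 8 and keratin 14 with keratin 5 are the classical pairs of simple and stratified epithelia. Epcam and E-cadherin, the product of Cdh1, are adhesion molecules of epithelial cells.

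The genes lie on 5 chromosomes in GRCm38. Chromosome 15 holds Krt7 (101411043 to 101430313), Krt5 (101707070 to 101712898), Krt8 (101996698 to 102004482) and Krt18 (102028180 to 102032027). Krt19 (100140810 to 100148665) and Krt14 (100203162 to 100207548) lie on chromosome 11, Trp63 (25683763 to 25892102) on chromosome 16, Epcam (87635979 to 87651129) on chromosome 17, and Cdh1 (106603351 to 106670246) on chromosome 8. The annotated coding transcripts of Trp63 start in 2 regions, at 25683763 and at 25801916. As background, the upstream start gives the TA forms of p63 and the internal start the deltaN forms, which are those of basal epithelia. The table has 1 value per gene, so it does not separate them.

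Depth ran from 21836878 to 29434125 reads per library, and levels are in CPM, reads per 1000000 reads. A count of 3 reads, used as the floor for counting error, came to 0.102 to 0.137 CPM. Kdm5c itself stood at 169.0 ± 18.4 CPM in mature adipocyte libraries labelled Kdm5c+/- and 177.7 ± 2.99 in wild type, and at 186.5 ± 9.89 and 184.6 ± 4.09 in the stromal vascular fraction (SD, n = 3 each). The gene-level value therefore does not bear out the labels, and it may include reads outside the removed part. Libraries are named by their label throughout, and a direction between genotypes rests on the labels alone. Fat cell genes marked the mature adipocyte libraries, where 8 of 8 in a list led by Fabp4, Cfd, Lipe and Pparg were higher. Those of endothelium (10 of 10), macrophages (7 of 7) and progenitors (8 of 8) were all lower there. Of all 14193 genes tested between the fractions, 28.7% were called higher and 59.1% lower in mature adipocytes. In bulk libraries, fewer cells of a type and less RNA per cell cannot be told apart.

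The promoters of 1 basal gene, 1 luminal gene and 1 adhesion gene are shown as examples. The RefSeq table (GRCm38.p6) held 6 of the 9 genes. Each line gives the 100 bases before the start annotated in RefSeq, 5′ to 3′ on the strand of the gene. Capitals mark matches to the motif TATAA, to its variant ATAAAA or to the GC box GGGCGG. These motifs were picked with the sequences in view and searched on both strands. For Krt18 the RefSeq start (102028216) lies inside the gene as positioned above, and so does the marked TATAA.
Krt5, chr15:101712906-101713005, minus strand: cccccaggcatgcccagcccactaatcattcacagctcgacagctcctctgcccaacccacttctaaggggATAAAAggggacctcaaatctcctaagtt
Krt18, chr15:102028116-102028215, plus strand: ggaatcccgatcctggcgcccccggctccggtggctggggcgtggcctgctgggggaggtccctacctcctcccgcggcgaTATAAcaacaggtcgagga
Epcam, chr17:87635879-87635978, plus strand: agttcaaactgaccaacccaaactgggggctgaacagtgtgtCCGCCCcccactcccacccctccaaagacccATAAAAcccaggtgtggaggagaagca
The motif TATAA or its variant, which can overlap, stood in this window in 4 of the 6 promoters and in 14.4% of 32851 promoters of all genes, and the GC box in 2 of the 6 and in 24.7%. Each promoter shown holds TATAA or its variant, whereas those of Krt8 and Krt14, not shown, hold no match to any of these motifs. The windows of Krt7, Krt8, Krt14 and, in part, Krt18 lie inside the genes as positioned above, so these counts include bases within genes. A match is a description of letters, not of a bound site.

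Per length, Krt19 and Krt18 led the 9 genes in each stromal vascular library, and the luminal keratins varied several-fold between pools. Krt19, a type I keratin without a fixed partner, stood at 71.4, 130.2 and 38.5 CPM in the libraries labelled Kdm5c+/- (replicates 1, 2 and 3) and at 62.9, 40.9 and 94.9 in wild type. Krt18 stood at 44.4, 89.5 and 20.1 CPM against 36.1, 34.9 and 66.8. Krt8, its type II partner, stood at 24.0, 66.4 and 13.1 CPM against 20.3, 16.3 and 53.1. For each of these keratins the highest and the lowest library both carried the label Kdm5c+/-, with the wild-type libraries between them. Krt7, a type II keratin of ducts and glands, stood at 14.9, 33.7 and 7.15 CPM against 14.2, 12.7 and 27.3.

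The adhesion genes had a narrower range. Epcam stood at 20.7, 29.8 and 9.08 CPM in the libraries labelled Kdm5c+/- and at 13.5, 16.2 and 25.3 in wild type. Cdh1 stood at 23.8, 38.3 and 12.8 CPM against 23.4, 19.9 and 28.3. The highest library was 3.28 times the lowest for Epcam and 2.99 times for Cdh1, the smallest such ratio of the 9 genes.

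The basal genes also varied several-fold. Krt5 stood at 9.17, 15.2 and 3.53 CPM in the stromal vascular libraries labelled Kdm5c+/- and at 5.19, 11.04 and 15.2 in wild type. Krt14 stood at 5.04, 9.39 and 2.18 CPM against 1.74, 6.42 and 7.81. Wild-type replicate 1 was thus the lowest library for Krt14 and the second lowest for Krt5, while its luminal keratins were in the middle of the range. Trp63 stood at 3.69, 8.29 and 1.32 CPM against 1.52, 3.10 and 3.45, a 6.30-fold range, the widest of the 9.

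**Figure D1:**
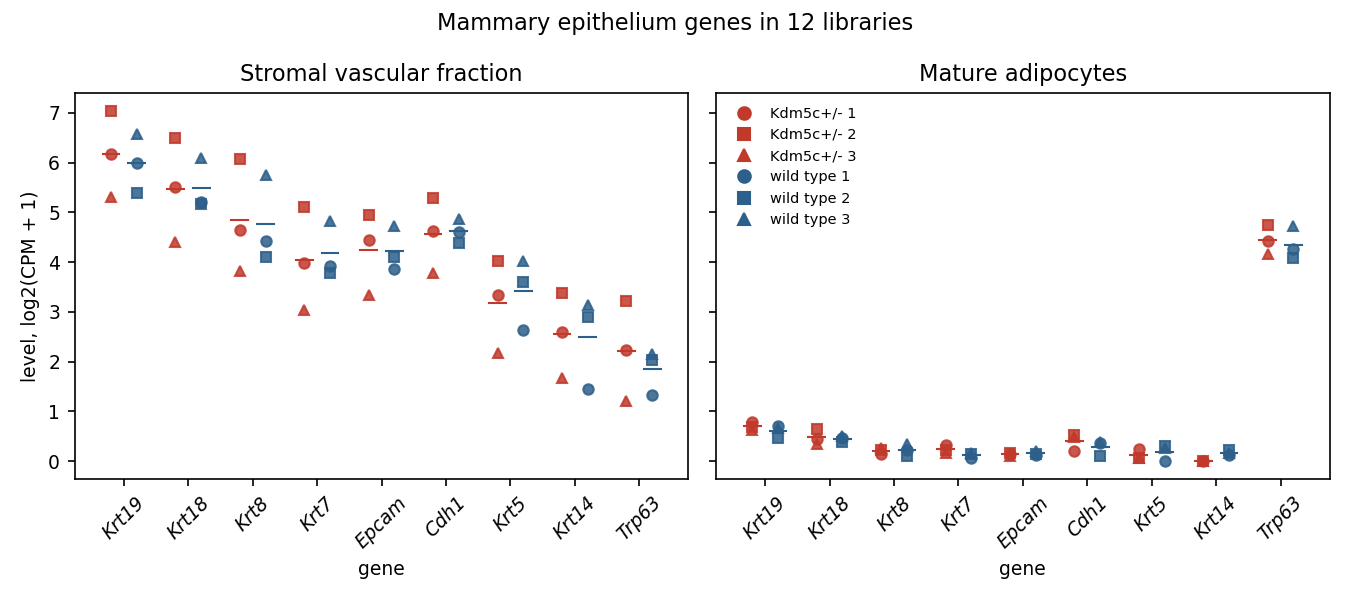
Levels of the 9 genes as log2(CPM + 1), with 1 point per library, colours for the genotype labels, symbols for replicates, and bars at the mean of 3. In the stromal vascular fraction (left) Kdm5c+/- replicate 2 is the highest point for all 9 genes, and in mature adipocytes (right) Trp63 alone stands well above 0.

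The 9 genes ordered the stromal vascular libraries nearly alike. Kdm5c+/- replicate 2 was highest for 9 of 9 genes, wild-type replicate 3 second for 8 of 9, and Kdm5c+/- replicate 3 lowest for 8 of 9, with Krt14 as the exception. Among the 13792 genes tested in this fraction, 21.5% were highest in the first of these libraries and 21.1% lowest in the last. Relative to its own mean over the 6 libraries, the median member stood at 1.78 in Kdm5c+/- replicate 2, 1.37 in wild-type replicate 3, 0.928 in Kdm5c+/- replicate 1, 0.815 in wild-type replicate 2, 0.705 in wild-type replicate 1 and 0.407 in Kdm5c+/- replicate 3. The spread within a label was large for each member: the within-group SD of log2(CPM + 1) was 0.56 (Cdh1) to 1.02 (Krt8), against a median of 0.14 over all genes tested. Between 96.9% and 99.7% of genes tested varied less than a given member. The members share their cells and libraries, so these are not independent observations. The list of 8 fat cell genes summed to 7920 CPM in Kdm5c+/- replicate 2, the most of the 6 libraries. It summed to 4377 CPM in Kdm5c+/- replicate 3, the least. Fabp4 alone gave 6259 and 3765 CPM of these sums. Of the 8 genes, 5 were highest in Kdm5c+/- replicate 2, but only 1 was lowest in Kdm5c+/- replicate 3. The depth was lowest in Kdm5c+/- replicate 2 (21836878 reads). The endothelial list was lowest in Kdm5c+/- replicate 2 (6911 CPM). The list of epidermal genes was also highest in Kdm5c+/- replicate 2 (36.5 CPM). Sbsn alone gave 23.3 CPM of this sum, and 5 of the 13 genes were highest in that library. The part of any of these in the order of the libraries was not tested.

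Compared per length, Krt19, Krt18 and Krt8 exceeded both basal keratins in all 6 stromal vascular libraries, and Krt7 did not. In CPM per kb of merged exons, the order of mean levels was Krt19 (39.4 ± 18.8, SD, n = 6), Krt18 (33.8 ± 17.5), Krt8 (16.4 ± 11.3), Epcam (8.70 ± 3.51), Cdh1 (5.34 ± 1.87), Krt5 (4.50 ± 2.24), Krt14 (3.09 ± 1.74), Krt7 (2.60 ± 1.42) and Trp63 (0.424 ± 0.301). Every pair of neighbours in that order had overlapping ranges except Krt7 and Trp63. Within a library the order was firmer, since Krt18 exceeded Krt8, Krt8 exceeded Epcam, Epcam exceeded Cdh1 and Krt5 exceeded Krt14 in 6 of 6 libraries, whereas Cdh1 exceeded Krt5 in 4 and Krt19 exceeded Krt18 in 5. The merged exons of Krt7 (7049 bases) and Trp63 (8391 bases) are much longer than their longest coding transcripts (4094 and 5366 bases). With the latter lengths Krt7 rose to 4.47 CPM per kb and stood above Krt14, while Trp63 at 0.664 remained last.

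The balance of luminal to basal genes varied between pools, and its range in wild type held that of the other label. The luminal sum (Krt8, Krt18, Krt19 and Krt7, CPM per kb) was 83.8, 171.1 and 42.5 in libraries labelled Kdm5c+/- and 71.4, 56.4 and 128.6 in wild type. The basal sum (Krt5, Krt14 and Trp63) was 7.48, 13.3 and 3.00 against 3.53, 9.05 and 11.8. Their ratio was 11.2, 12.9 and 14.1 in the libraries labelled Kdm5c+/- and 20.2, 6.24 and 10.9 in wild type. The mean ratio was 12.8 ± 1.47 for the former label and 12.5 ± 7.10 for wild type (SD, n = 3 each). All 3 values of the former lay inside the wild-type range. Wild-type replicate 1 had the highest ratio, with a low basal sum, and wild-type replicate 2 the lowest, with a luminal sum second only to the smallest and a basal sum in the middle. No test was made of this ratio. It kept its order of libraries for Krt18 over Krt14 at the extremes, with 25.3 in wild-type replicate 1 and 6.65 in wild-type replicate 2, against 10.8, 11.7 and 11.3 in the libraries labelled Kdm5c+/-. For Krt8 over Krt5 wild-type replicate 2 was again lowest (1.65), and Kdm5c+/- replicate 2 was highest (4.90).

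**Figure D2:**
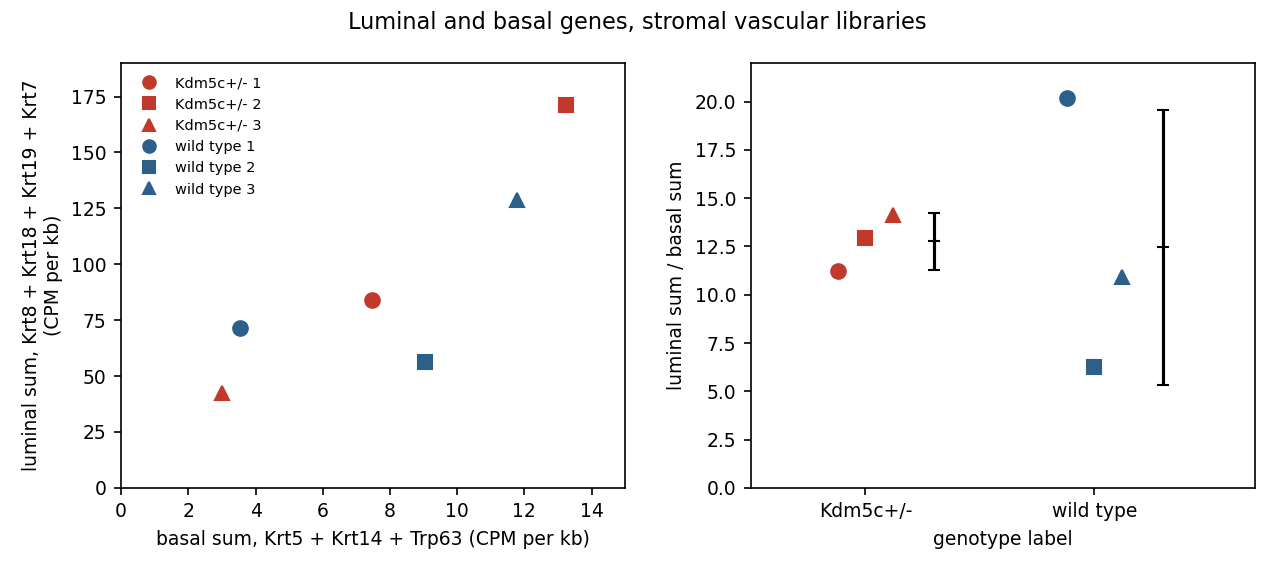
Left, the luminal sum against the basal sum in CPM per kb, with 1 point per stromal vascular library. Right, their ratio by genotype label with mean and SD (n = 3): the libraries labelled Kdm5c+/- lie between 11.2 and 14.1, inside the wild-type range of 6.24 to 20.2.

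Between the fractions, Trp63 alone of the 9 genes was higher in mature adipocytes, and the other 8 were lower there. In this comparison 87.8% of 14193 genes passed, 59.1% as lower and 28.7% as higher in mature adipocytes, so a call by itself sets no gene apart. In mature adipocyte libraries Krt8 had 2 to 7 reads, Krt18 7 to 14, Krt19 11 to 20, Krt7 1 to 7, Epcam 2 to 4, Cdh1 2 to 11 and Krt5 0 to 7. Krt14 had 0 reads in the 3 libraries labelled Kdm5c+/- and 2, 5 and 3 in wild type. Many of these values lie at or near the floor of 3 reads.

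Over all 6 libraries of each fraction, the level of Krt8 was 203-fold higher in the stromal vascular fraction (95% exact interval for counting error only, 137 to 314). It was 127-fold higher for Krt18 (98.8 to 167), 128-fold for Krt19 (104 to 159), 137-fold for Krt7 (89.5 to 222), 177.5-fold for Epcam (111 to 305) and 91.1-fold for Cdh1 (67.3 to 127). The basal keratins were 82.3-fold (Krt5, 52.5 to 137) and 85.6-fold higher (Krt14, 46.3 to 179). In libraries labelled Kdm5c+/-, with no read of Krt14 in mature adipocytes, its level was at least 143.5-fold higher in the stromal vascular fraction, taking 3 reads over the group as the floor.

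On the log2(CPM + 1) scale, which shrinks the differences of genes near 0, the values of mature adipocytes minus stromal vascular fraction were -5.43 ± 0.27 for Krt19 (SE), -5.01 ± 0.30 for Krt18, -4.59 ± 0.36 for Krt8 and -3.93 ± 0.30 for Krt7. They were -4.26 ± 0.21 for Cdh1, -4.08 ± 0.24 for Epcam, -3.14 ± 0.30 for Krt5 and -2.44 ± 0.31 for Krt14 (limma, adjusted p of at most 1.52e-05). The 6 libraries of one fraction lay outside the 6 of the other for 9 of 9 genes, as for 74.6% of genes tested. The median of the 9 differences was -4.08 and that of all genes -0.45. The latter moved to -0.09 with median-of-ratios and -0.01 with TMM scaling. The 8 genes passed the filter on low values through their stromal vascular libraries alone, so their count supports nothing, and without the filter the same 9 calls were made.

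Trp63 went the other way. It stood at 20.6, 25.7 and 16.9 CPM in mature adipocyte libraries labelled Kdm5c+/- and at 18.1, 15.9 and 25.3 in wild type, and every one of these 6 values was above all 6 stromal vascular values. Its mean of 20.4 ± 4.24 CPM there compared with 3.56 ± 2.52 CPM in the stroma (SD, n = 6 each), a log2 difference of 2.37 ± 0.30 (SE, limma, adjusted p = 1.14e-05). Mature adipocyte libraries held 432 to 654 reads of Trp63, so the level is far from the floor. In the same libraries its partners in the basal layer, Krt5 and Krt14, reached at most 0.238 and 0.170 CPM. Trp63 was thus the first of the 9 genes per length in mature adipocytes (2.43 ± 0.505 CPM per kb) and the last in the stromal vascular fraction. Per pool, taken by label and number, the stromal vascular level of Trp63 was 17.9%, 32.2% and 7.77% of the mature adipocyte level in the pools labelled Kdm5c+/- and 8.38%, 19.5% and 13.7% in wild type. The same share of the 8 fat cell genes lay on both sides of that of Trp63. For Fabp4, a fatty acid carrier, it was 30.7% to 51.0%, and for Pparg, the regulator of fat cell differentiation, 22.6% to 46.6%, both above Trp63 in 6 of 6 pools. For Lipe, hormone-sensitive lipase, it was 5.75% to 10.9%, below Trp63 in 5 of 6 pools, and for Cfd, the secreted adipsin, 1.12% to 3.53%, below it in 6 of 6. The other 4 genes of the list were below Trp63 in 6 of 6 pools. Whether the Trp63 reads of the 2 fractions come from the same start region was not analysed here.

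**Figure D3:**
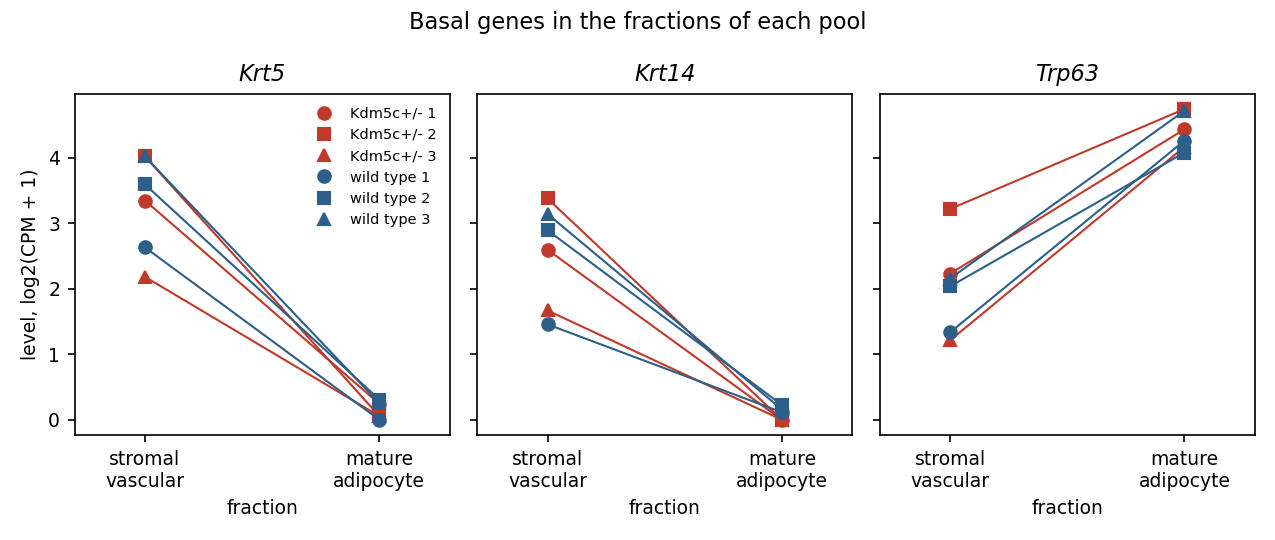
Levels of Krt5, Krt14 and Trp63 as log2(CPM + 1) in the stromal vascular and mature adipocyte library of each pool, taken by label and number and joined by lines. Krt5 and Krt14 go down to near 0 in mature adipocytes in all 6 pools, and Trp63 goes up in all 6.

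The 8 genes other than Trp63 were found in mature adipocytes at a small share of their stromal vascular level. The median share of the stromal vascular level found in the mature adipocyte library of the same pool was 0.483% for Krt8, 0.612% for Epcam, 0.639% for Krt7, 0.741% for Krt14, 0.851% for Krt18, 0.950% for Krt19, 1.12% for Cdh1 and 1.19% for Krt5. The value of Krt14 describes no pool, with 0% in each pool labelled Kdm5c+/- and 4.74%, 2.65% and 1.48% in wild type. Over these 8 genes the median was 0.796%. It was 1.29% for progenitor, 1.58% for macrophage and 3.11% for endothelial genes, and 1.08% for the other luminal, 1.97% for the shared epithelial and 2.47% for the other basal genes described further on. For the remaining lists it was 0.508% for milk, 0.667% for mesothelial, 1.04% for epidermal and 2.84% for pericyte and smooth muscle genes. It was 6.97% for contractile and for hair follicle genes. Some single genes of other lists, such as Vwf (0.754%) and Pdgfra (0.820%), lay within the range of the 8. The lists overlapped in single genes, the mesothelial list including Krt8, Krt18 and Krt19, and no test was made of these differences. Wild-type replicate 2 held more macrophage transcripts in mature adipocytes than the other 5 (98.6 against 32.6 to 39.4 CPM summed over the list). In the same library the luminal keratins summed to 0.849 CPM, the lowest of the 6. The basal keratins Krt5 and Krt14 were there at their highest of the 6, 0.238 and 0.170 CPM, on 7 and 5 reads.

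**Figure D4:**
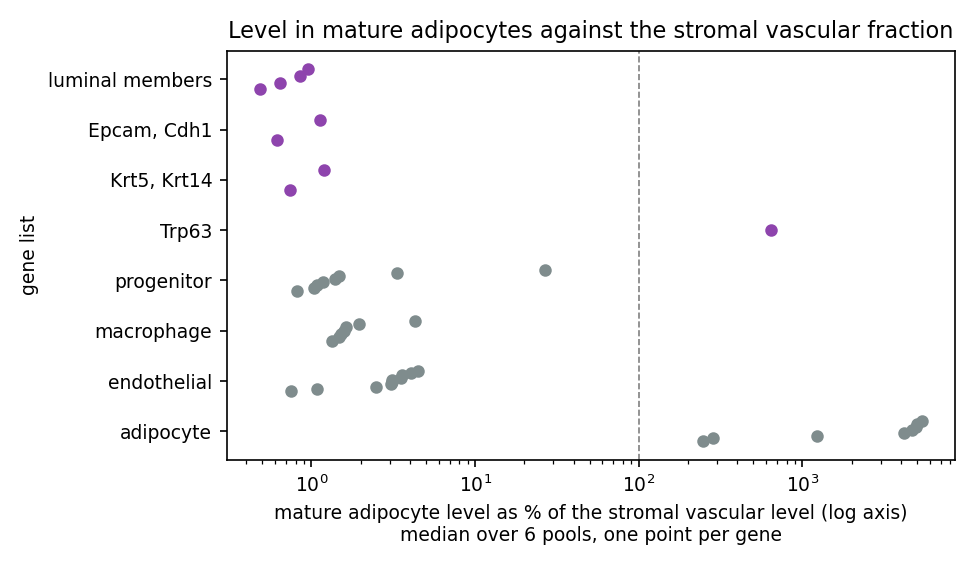
Level in mature adipocytes as a percentage of the stromal vascular level of the same pool, median over 6 pools, on a log axis, with 1 point per gene and the dashed line at equal levels. The 8 epithelial genes lie between 0.483% and 1.19%, and Trp63 lies above 100% on the side of the fat cell genes. Krt14 is at 0% in each pool labelled Kdm5c+/-, so its median describes no pool.

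The genotype comparison asks whether the labels differ within a fraction. In the stromal vascular fraction, 0 of the 9 genes differed between the labels (limma, adjusted p of 0.873 to 0.995), 0 had an unadjusted p under 0.05, and edgeR and DESeq2 called 0 as well. In this comparison 0.00725% of 13792 genes passed in limma and in edgeR, and 0.384% in DESeq2. For 0 of 9 genes did the 3 libraries of one label lie outside the other 3, as was the case for 13.5% of all genes tested.

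The intervals of these differences were wide. As a ratio of Kdm5c+/- to wild type on the scale of CPM + 1, Krt8 was at 1.06 (95% interval 0.354 to 3.18), Krt18 at 0.987 (0.404 to 2.41), Krt19 at 1.13 (0.509 to 2.53) and Krt7 at 0.914 (0.368 to 2.27). Epcam was at 1.01 (0.492 to 2.08) and Cdh1, with the narrowest interval, at 0.965 (0.523 to 1.78). Krt5 was at 0.852 (0.347 to 2.10), Krt14 at 1.04 (0.396 to 2.71) and Trp63 at 1.299 (0.554 to 3.05). A change of 1.5-fold in either direction lies inside each of these intervals, so the test does not show that the labels were alike. The median of the 9 log2 differences was 0.01, against -0.03 over all genes tested.

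**Figure D5:**
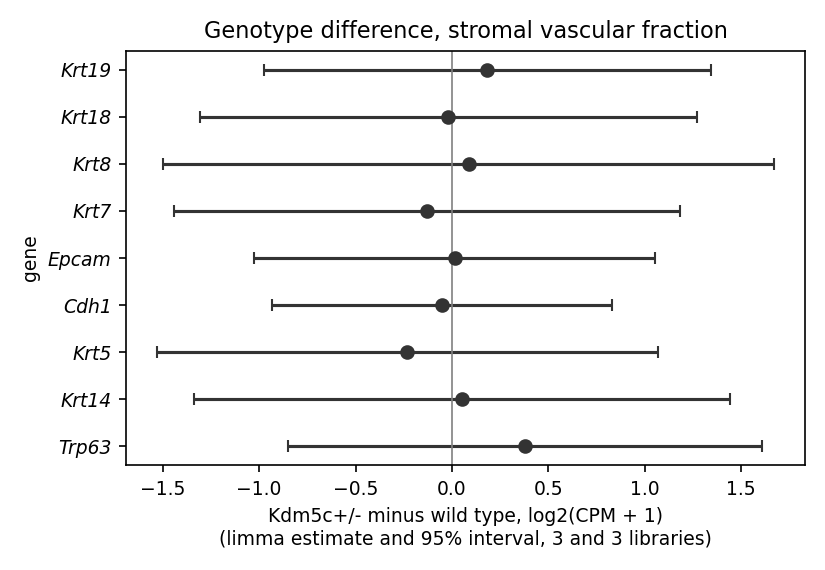
Difference between stromal vascular libraries labelled Kdm5c+/- and wild type (3 each) on the log2(CPM + 1) scale, with the limma estimate as a point and the 95% interval as a bar. The interval of each of the 9 genes includes 0, and the widest, that of Krt8, runs from -1.50 to 1.67.

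In mature adipocytes, 1 of the 9 genes, Trp63, passed the filter on low values. It averaged 21.1 ± 4.43 CPM in libraries labelled Kdm5c+/- and 19.8 ± 4.90 in wild type (SD, n = 3 each), a log2 difference of 0.10 ± 0.21 (limma, adjusted p = 0.845). The ratio was 1.07 with a 95% interval of 0.760 to 1.50, and 0% of 11913 genes passed. Its libraries overlapped between the labels, whereas those of 22% of genes tested did not. The other 8 were too low for a comparison between the labels, Krt19 being the highest of them at 0.627 ± 0.0956 and 0.524 ± 0.132 CPM. Krt14, with 0 reads in 1 group and 2 to 5 in the other, had an unadjusted p of 0.00680 when the filter was dropped (limma, adjusted p = 0.327). The difference between the genotype differences of the fractions was not called for any of the 9 genes either (limma, adjusted p of 0.918 to 0.994, with 0 at an unadjusted p under 0.05), and 0% of 14193 genes passed. The edgeR and DESeq2 tests also called 0, against 0% and 0.472% of all genes. For Krt14 DESeq2 gave an unadjusted p of 0.00790 and no adjusted one, with all 3 mature adipocyte libraries labelled Kdm5c+/- at 0.

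Other epithelial genes were measured from lists of luminal, basal, shared epithelial and milk genes. Of 23 genes shared by many epithelia, 21 were tested between the fractions, with 20 lower and 1 higher in mature adipocytes. Of all genes tested, 59.1% were lower and 28.7% higher there, the background for the list counts that follow too. Spint2 and St14, a protease inhibitor and the membrane protease matriptase, stood at 35.2 ± 4.33 and 13.5 ± 3.84 CPM in stromal vascular libraries (SD, n = 6). Dsp, the desmosomal desmoplakin, stood at 14.7 ± 5.76 and Lsr, a protein of tricellular junctions, at 11.1 ± 3.34. The exception was Grhl1, a grainyhead transcription factor, with 25.4 CPM in mature adipocytes against 3.83 (log2 difference 2.44 ± 0.16, limma, adjusted p = 2.79e-08). Its name and that of the next exceptions were singled out after their values were seen. In the stromal vascular fraction 17 of the 23 were highest in Kdm5c+/- replicate 2 and 19 lowest in Kdm5c+/- replicate 3. These counts were 16 and 12 of 20 for the other luminal genes and 8 and 12 of 19 for the other basal genes. For the milk genes they were 3 and 2 of 6. Over all genes tested the shares were 21.5% and 21.1%.

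Of 20 other luminal genes, 19 were tested, with 18 lower and 1 higher in mature adipocytes (17 and 1 with TMM scaling). Prlr, the prolactin receptor, stood at 72.8, 168.0 and 39.4 CPM in stromal vascular libraries labelled Kdm5c+/- and at 79.0, 62.2 and 113.7 in wild type. Kit, Aldh1a3 and Cd14, genes of luminal progenitors that other stromal cells also make, averaged 63.9 ± 11.9, 45.9 ± 10.7 and 30.0 ± 4.68 CPM (SD, n = 6) and did not follow the order of the keratins. The gene higher in mature adipocytes was Esr1, the estrogen receptor (93.2 against 27.6 CPM, log2 difference 1.72 ± 0.17, limma, adjusted p = 1.38e-06).

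Pgr and Areg, luminal genes named after their values were seen, differed from the keratins in their spread. Pgr, the progesterone receptor, stood at 6.68, 40.1 and 5.22 CPM in libraries labelled Kdm5c+/- and at 6.71, 3.82 and 26.4 in wild type. Its level per Krt8 was 0.605 and 0.497 in Kdm5c+/- replicate 2 and wild-type replicate 3 and 0.235 to 0.398 in the other 4. Areg, the epidermal growth factor receptor ligand amphiregulin, stood at 9.57, 12.9 and 6.74 CPM against 0.179, 7.09 and 11.1, so that wild-type replicate 1 was near the floor while its Krt8 was at 20.3 CPM.

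Of 20 other basal genes, 14 were tested between the fractions, with 10 lower and 1 higher in mature adipocytes and 3 not called. Jag2, a Notch ligand, stood at 130.6 ± 15.8 CPM in the stromal vascular fraction, Itgb4, the integrin of hemidesmosomes, at 98.5 ± 24.99, and the laminin chain Lama3 at 43.1 ± 6.06 (SD, n = 6). Endothelial and other stromal cells also make some of these. The gene higher in mature adipocytes was Oxtr, the oxytocin receptor of myoepithelium, at 122.6 against 9.41 CPM (log2 difference 3.56 ± 0.40, limma, adjusted p = 4.14e-06). The contractile genes Myh11 (572 ± 123 CPM), Acta2 (412 ± 121), Mylk (352 ± 48.4) and Tagln (243 ± 65.8) were all measured in the stromal vascular fraction. Vascular smooth muscle makes them too, and the pericyte and smooth muscle genes Rgs5, Notch3, Pdgfrb and Abcc9 stood there at 866, 760, 751 and 530.1 CPM. Myoepithelium and vascular smooth muscle cannot be told apart by these contractile genes in bulk libraries.

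Among 10 milk genes, 6 were in the table and 5 tested, with 4 lower and 1 higher in mature adipocytes (3 and 1 with TMM scaling). Csn3, kappa-casein, stood at 7.38, 20.2 and 4.69 CPM in stromal vascular libraries labelled Kdm5c+/- and at 8.01, 6.20 and 17.5 in wild type, in the same order as Krt8 but for Kdm5c+/- replicate 1 and wild-type replicate 1, which changed places. Its level per Krt8 was 0.304 to 0.394 over the 6 libraries. Lalba, alpha-lactalbumin, was at most 0.73 CPM. Glycam1, which lymph node venules also make, followed another order, with 14.0, 0.0916 and 1.56 CPM against 9.62, 2.92 and 0.182. Xdh and Plin2, components of the milk fat globule that fat and vessel cells also make, averaged 630.3 ± 65.9 and 212 ± 78.4 CPM.

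Genes of other epithelia were followed in lists for epidermis, hair follicle and mesothelium. Of 18 genes of epidermal keratinocytes, 13 were in the table, without Krt1, Krt2, Krt16, Flg and Ivl. Krt10, a keratin of suprabasal epidermis, stood at 3.00 ± 0.48 CPM in stromal vascular and 2.38 ± 0.52 in mature adipocyte libraries (SD, n = 6 each). Lor, loricrin, was at most 0.494 CPM in any library. In the same order of fractions, Sbsn stood at 15.03 ± 5.69 and 23.0 ± 4.73 CPM, Serpinb5 at 2.28 ± 1.10 and 0.0202, and Dmkn at 1.66 ± 0.96 and 0.0404. The list summed to 20.6 to 36.5 CPM in stromal vascular libraries labelled Kdm5c+/- and to 16.0 to 31.1 in wild type. Of 10 hair follicle genes 3 were in the table, Tchh (a mean of 1.19 CPM in the stromal vascular fraction), Krt25 and Krt28 (0.0896). Krt25 rested on Kdm5c+/- replicate 1, with 2.85 CPM against at most 0.366 in the other 5 libraries. The 3 genes summed to 4.38 CPM in that library, 1.56 and 1.69 in the others of its label and 0.718 to 1.31 in wild type. Of 11 mesothelial genes 10 were in the table, 3 of them members here. The defining Msln and Wt1 were at most 0.988 and 0.314 CPM, and Upk3b was at 2.47 CPM in wild-type replicate 2 and at most 0.37 in the other 5 stromal vascular libraries. Gpm6a, which nerve cells also make, averaged 8.95 ± 2.19 CPM. Lrrn4 was higher in mature adipocytes (6.89 against 0.641 CPM). The next counts take in all the lists, those of fat, vessel and immune cells included. Between the genotype labels limma called 0 of 113 list genes other than the members in the stromal vascular fraction (13 at an unadjusted p under 0.05). It called 0 of 68 in mature adipocytes (19), and 0 of 115 for the difference between them (13). Of the 19, 7 were endothelial and 6 pericyte or smooth muscle genes. Over all genes tested, 1043 of 13792, 1737 of 11913 and 1267 of 14193 had such a p in limma. The edgeR test called 0 list genes in each comparison. DESeq2 called 1 (Plin2, higher in the label Kdm5c+/-), 8 (Fabp4, Cidec and Sbsn higher, and Kdr, Flt1, Abcc9, Notch3 and Kcnj8 lower in that label) and 0. Of all genes it called 0.384%, 2.1% and 0.472%.

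The genes most like Krt8 across the 6 stromal vascular libraries, by the root mean square difference of log2(CPM + 1) centred on its mean, were Csn3 (0.169), Cxcl15 (0.184), Plet1 (0.246) and Esrrb (0.252), against a median of 0.844 over 13751 genes. Those most like Krt5 were Cdh3, P-cadherin (0.237), Pdlim3 (0.243), Clca2 (0.252) and Cnn1, calponin (0.256), against a median of 0.693. Members were left out of these lists. With members included, Krt14 held place 1 from Krt5 and Krt7 place 3 from Krt8, while Krt5 held place 95 from Krt8 and Krt8 place 314 from Krt5. Of the 50 nearest genes, 7 for Krt8 and 11 for Krt5 stood in the luminal, basal, shared epithelial or milk lists, which held 59 of the 13751 genes. These distances rest on 6 libraries in which 2 stood high together, and are a description.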

How the data were processed

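RNA was sequenced from 12 libraries. The authors deposited CPM, counts per 1000000 reads over the genes listed. GRCm38, edgeR 3.26.8 and STAR 2.7.2a appear per the submitters' processing notes. The sources used here do not give the counting tool or annotation, and per the labels' protocols the libraries were strand-specific. In each library 100% of values were whole multiples of one step (tolerance 0.05 read), so whole reads were recovered. Groups came from the sample titles, and nothing in the labels names a batch. Replicates are pools of 2 mice, so p-values measure the spread between such pools.

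All comparisons used limma 3.58.1 (R 4.3.3, trend and robust, two-sided) on log2(CPM + 1), with Benjamini-Hochberg adjustment over all genes tested and a threshold of 0.05. A gene was tested when at least 3 of the libraries fitted reached 1 CPM. The fractions and the difference of differences were fitted on 12 libraries with 1 mean per group, and each genotype comparison on its own 6. The fitting script was run on simulated data with the same relative spread for all genes. This is a check of the code and does not give the power for the members. Fractions with the same label and number were taken as 1 pool, from the data and not the labels. Their deviations from the group means correlated at 0.169 to 0.278 in 6 of 6 pairs. Kdm5c+/- and wild-type replicate 1, which are different pools, reached 0.341 in mature adipocytes, and unlike numbers were not compared. The pairing is therefore an assumption, and the main fits did not use it.

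Lengths and positions are from GENCODE M21, per kb of merged exons. Alternatives were a pseudocount of 0.25, no filter or a mean of 5 CPM, median-of-ratios and TMM scaling, edgeR 4.0.16 and DESeq2 1.42.0 on the recovered reads, a replicate block, 12 libraries in a genotype fit, and leaving out each library. Other lengths and ratios without Trp63 or Krt19 were added after seeing the data. Named genes were all members, up to 4 of each list by mean stromal vascular CPM, those called between genotypes, defining genes near 0, and the 4 nearest to Krt8 and to Krt5, with exceptions named as such; 1 list gene that the rule names is not reported here. Software also included matplotlib 3.10.9, numpy 2.4.6, pandas 2.3.3 and Python 3.11.15. The members and lists were chosen with earlier results of these data known.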

Additional observations from a re-analysis of the deposited data

How the results depend on the processing

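Between the fractions, the 179 refits of the 9 genes kept their direction and their call. The count of members called was 9 in each, except 8 of 8 tested with a mean of at least 5 CPM, a filter that Krt14 does not pass. Between the labels the count was 0 in each fraction, and 0 for the difference between the fractions' genotype differences, in every refit. A replicate block gave 9, 0, 0 and 0 for these 4 counts and changed no call of a member. The deviations of same-numbered libraries of the 2 labels correlated at 0.341, -0.026 and -0.0013 in mature adipocytes. In the stromal vascular fraction they correlated at 0.184, -0.281 and -0.204. For replicate 1 the correlation was positive in both fractions. In mature adipocytes it was above the 0.169 to 0.278 found between the fractions.

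Every genotype difference of a member, none of them called, changed sign in at least 1 refit, and the cause was not tested. In the stromal vascular fraction the log2 difference of Krt18 was 0.0186 with median-of-ratios and 0.0158 with TMM scaling, and 0.18 in edgeR and 0.19 in DESeq2. Krt7 was at 0.0576 and 0.0722, and Cdh1 at 0.0886 and 0.0977, in edgeR and DESeq2. For the difference between fractions, those tools gave -0.0372 and -0.0267 for Krt18, 0.00423 and 0.00334 for Krt19 and -0.54 and -0.53 for Krt5, and a pseudocount of 0.25 gave 0.00562 for Krt19. 

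Leaving out 1 library moved the stromal vascular log2 difference of Krt8 between -0.53 and 0.60, Krt18 between -0.53 and 0.52, Krt19 between -0.25 and 0.62, Krt7 between -0.67 and 0.38, Epcam between -0.34 and 0.47, Cdh1 between -0.41 and 0.34, Krt5 between -0.65 and 0.27, Krt14 between -0.47 and 0.49, and Trp63 between -0.12 and 0.88. Without Kdm5c+/- replicate 2 or 3 these were lowest and highest, except that Krt14 was lowest without wild-type replicate 1. Trp63 in mature adipocytes moved between -0.0522 and 0.28. The difference between fractions moved between -0.61 and 0.52 for Krt8, -0.49 and 0.56 for Krt18, -0.52 and 0.34 for Krt19, -0.26 and 0.78 for Krt7, -0.48 and 0.33 for Epcam, -0.22 and 0.53 for Cdh1, -0.34 and 0.58 for Krt5, -0.66 and 0.30 for Krt14, and -0.79 and 0.22 for Trp63.

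The mean luminal to basal ratio of libraries labelled Kdm5c+/- was 9.87 with CPM not divided by length, 4 for Krt8 over Krt5 alone, 11.25 for Krt18 over Krt14 alone and 6.97 without Krt19. In wild type it was 3.32 for Krt8 over Krt5 alone and 6.99 without Krt19. Leaving out 1 library moved it from 12.1 to 13.5 and, in wild type, from 8.58 (without replicate 1) to 15.6 (without replicate 2). At the depth of these libraries, levels of the 8 genes other than Trp63 in mature adipocytes rest on at most 20 reads each.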
